A study of Mus musculus with 39 samples.

Results

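The 9 genes described here, P2ry12, P2ry13, Gpr34, Cx3cr1, Selplg, Siglech, Tmem119, Fcrls and Olfml3, form a list of genes that microglia, the resident macrophages of the brain, express in their resting or homeostatic state. They were taken by name from the gene tables of isolated mouse microglia, where they are 9 of 46333 genes in the female table and 9 of 54532 in the male table. The rule used no measured value, but the genes were chosen with earlier results of these data known. All 9 passed the filter on low counts in every comparison. The list is named for the cell surface, but Olfml3 encodes a secreted protein, so the 9 are called homeostatic genes below.

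CD11b+ cells were isolated immunomagnetically from the cerebrum of female and male mice, and their RNA was sequenced in bulk in 39 libraries. WT mice were compared with 5XFAD mice, which carry mutant human transgenes linked to familial Alzheimer's disease and develop amyloid pathology. Both genotypes breathed either room air (normoxia, NX) or air that cycled between low and normal oxygen (chronic intermittent hypoxia, CIH), a model of sleep apnea. The labels give 6.5% and 21% O2 alternating over 90 s, for 8 h per day, whereas the oxygen level and the daily hours in the study's methods differ from these. Exposure began at 4 months of age and lasted 6 months in females, which were 10 months old at harvest, and 4 months in males, which were 8 months old. Each sex thus had 4 groups (WT NX, 5XFAD NX, WT CIH and 5XFAD CIH), of 5 libraries each except female WT NX with 4. The sexes differed in age, exposure and gene table, and values were compared only within a sex. CD11b is shared by other myeloid cells, and in bulk RNA fewer cells of a type and less RNA per cell cannot be told apart.

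P2ry12 and P2ry13 encode receptors for ADP, through which microglial processes sense nucleotides released by damaged cells, and Gpr34 encodes a receptor for lysophosphatidylserine. Cx3cr1 is the receptor for fractalkine, a chemokine that neurons display. Selplg (PSGL-1) binds selectins, and Siglech is a sialic acid-binding lectin that signals through the adaptor encoded by Tyrobp. Tmem119 and Fcrls are membrane proteins used as microglial markers, and Olfml3 is a secreted olfactomedin-domain protein. Near amyloid plaques microglia are known to lower many homeostatic genes while raising another set, the disease-associated microglia (DAM) genes such as Trem2, Apoe and Cst7.

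The ADP receptor genes are neighbours on the GRCm38 genome, as are Tmem119 and Selplg. P2ry13 (chr3:59207892-59210882, minus strand) and P2ry12 (chr3:59216272-59262871, minus strand) lie 5389 bases apart with no gene between them, and both lie inside Med12l on the opposite strand, whose exons P2ry12 exons overlap. Tmem119 (chr5:113793729-113800516, minus strand) and Selplg (chr5:113818536-113832644, minus strand) lie 18019 bases apart, with the non-coding gene model Gm19931 between them. Gpr34 (chrX:13632089-13640858) lies inside Cask, which is on the other strand, and exons of Cx3cr1 (chr9:119901616-120069879) overlap those of the antisense gene Gm33858. Siglech is at chr7:55768178-55778925, Olfml3 at chr3:103722222-103738001 and Fcrls at chr3:87250758-87263738. Whether the reads were counted by strand is not given in the sources used here, so reads of P2ry12 and Med12l, or of Cx3cr1 and Gm33858, may not have been told apart.

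RefSeq start windows on GRCm38.p6, from 250 bases before to 50 bases after the start, were at hand for 6 of the 9 genes. The windows of P2ry12, P2ry13 and Fcrls are printed because the first and second are adjacent genes that were both lower in 5XFAD microglia, whereas Fcrls was not lower in any 5XFAD comparison. Capitals mark GAGGAA, the core letters of the box bound by PU.1, the factor that myeloid cells depend on, searched on both strands. They run 5′ to 3′ on the gene's own strand, at chr3:59262936-59263235 for P2ry12, chr3:59210833-59211132 for P2ry13 and chr3:87263475-87263774 for Fcrls.
P2ry12: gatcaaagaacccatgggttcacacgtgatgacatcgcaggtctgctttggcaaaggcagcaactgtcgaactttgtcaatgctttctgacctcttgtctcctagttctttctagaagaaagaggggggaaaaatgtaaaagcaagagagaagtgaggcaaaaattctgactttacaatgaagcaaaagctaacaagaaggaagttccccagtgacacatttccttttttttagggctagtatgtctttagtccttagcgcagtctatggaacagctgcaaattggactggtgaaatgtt
P2ry13: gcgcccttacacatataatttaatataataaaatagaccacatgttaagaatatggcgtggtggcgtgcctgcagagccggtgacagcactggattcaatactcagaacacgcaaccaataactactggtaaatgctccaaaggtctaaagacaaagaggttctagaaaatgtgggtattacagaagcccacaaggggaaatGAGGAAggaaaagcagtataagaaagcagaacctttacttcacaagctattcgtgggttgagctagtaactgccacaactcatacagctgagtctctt
Fcrls: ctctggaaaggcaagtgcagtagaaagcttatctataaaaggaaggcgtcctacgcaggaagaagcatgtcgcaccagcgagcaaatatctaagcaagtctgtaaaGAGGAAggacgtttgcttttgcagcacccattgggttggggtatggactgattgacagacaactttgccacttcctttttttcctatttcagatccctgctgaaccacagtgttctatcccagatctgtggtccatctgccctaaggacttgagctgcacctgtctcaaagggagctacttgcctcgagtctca
The P2ry12 window held no match, and those of P2ry13 and Fcrls held 1 each. Among all 32851 windows of this length, 28.3% held a match.

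Total counts ran from 14731683 to 25906121 per library in females and from 13457293 to 23095627 in males, and values are given as CPM, a library's counts scaled to a common total with TMM factors, in the order of the libraries of a group. The defining microglial genes Itgam, Aif1, Csf1r, C1qa and Ctss were present in every library, with Aif1 between 161 and 509.9 CPM and Csf1r between 6839.75 and 10590.1 CPM. Some libraries stood apart. Female 5XFAD NX library 4 had a sum over 20 DAM genes of 12749.8 CPM, against 59547 to 98441 CPM in the other libraries labelled 5XFAD NX and 14622 to 24694 CPM in WT NX, and so went against its label in these genes. Male 5XFAD NX libraries 4 and 5 lay between the WT and the other 5XFAD libraries on the first principal component, with DAM sums of 55956 and 53297 CPM against 81518 to 101886 CPM in the rest of 5XFAD NX. Female WT NX library 1 had a monocyte marker sum of 477 CPM, against 35.8 to 61.2 CPM in the other 3 of its group, and its DAM sum was the highest of WT NX. Male 5XFAD CIH library 5 had a DAM sum of 130584 CPM, against 69550 to 87262 CPM in the other 4, and the lowest TMM factor of all male libraries (0.774). Male 5XFAD NX library 2 had a neutrophil marker sum of 1427 CPM, against 78.8 to 384 CPM in the rest of its group. On the first principal component of the male WT libraries, WT NX library 1 lay at 7.74. The rest of WT NX ran from −59.3 to −36.8 there, and WT CIH from 22.5 to 41.4. The gene lists below were not counted without either library.

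In WT microglia the levels of the 9 genes differed by several fold among themselves. As FPKM, which corrects for gene length, Cx3cr1 was the highest in female WT NX microglia at 1567 ± 76.4 (SD, n = 4), followed by P2ry12 at 1469 ± 215 (SD, n = 4) and Tmem119 at 1316 ± 63.5 (SD, n = 4). Selplg, Fcrls, Olfml3 and Siglech followed, and neighbours in this order from Cx3cr1 to Siglech did not differ by more than the sum of their SDs. P2ry13 (577 ± 116, SD, n = 4) and Gpr34 (362 ± 54.6, SD, n = 4) were lower, each by more than that. As CPM, without a correction for length, Gpr34 averaged 1689 ± 246 (SD, n = 4) and P2ry13 1382 ± 270 (SD, n = 4) in this group. In male WT NX microglia Tmem119 (1584 ± 125, SD, n = 5) and P2ry12 (1576 ± 199, SD, n = 5) led and did not differ beyond their spread, and Olfml3 (425 ± 44.6, SD, n = 5) and Siglech (416 ± 19.7, SD, n = 5) were last. The 2 tables used different lengths for several genes (6161 bases for Olfml3 in the male table and 1736 in the female table, for example), so FPKM levels were not compared between sexes. The order of the genes within a sex rests on these lengths too, such as 2090 bases for Gpr34 in the male table and 4916 in the female table. The ranks hold only for the lengths of each table.

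At the lengths of each table, the order changed in 5XFAD microglia. Fcrls, in the middle of the order in WT NX, was first in all 4 5XFAD groups, with 1105 ± 128 (SD, n = 5) in female 5XFAD NX, 1156 ± 126 (SD, n = 5) in female 5XFAD CIH, 1205 ± 154 (SD, n = 5) in male 5XFAD NX and 1233 ± 166 (SD, n = 5) FPKM in male 5XFAD CIH. In both male groups it lay above Cx3cr1, the next gene, by more than the sum of the SDs, but in the female groups it did not. The rank of Tmem119 was 3 in both female WT groups and 7 in both female 5XFAD groups, with 505 ± 95.3 FPKM (SD, n = 5) in 5XFAD CIH. In males its rank was 1 in WT NX, 4 in 5XFAD NX (3 without libraries 4 and 5) and 3 in both CIH groups. Female 5XFAD NX had no neighbours apart by more than their spread, and P2ry12 varied there from 522 to 1253 FPKM. Without library 4 Fcrls (1144 ± 110, SD, n = 4) was above Cx3cr1 (943 ± 62.7, SD, n = 4) by more than the sum of the SDs in that group, and P2ry12 ran from 522 to 792 FPKM. Fcrls was also first in male 5XFAD NX without libraries 4 and 5 and in male 5XFAD CIH without library 5.

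**Figure D1:**
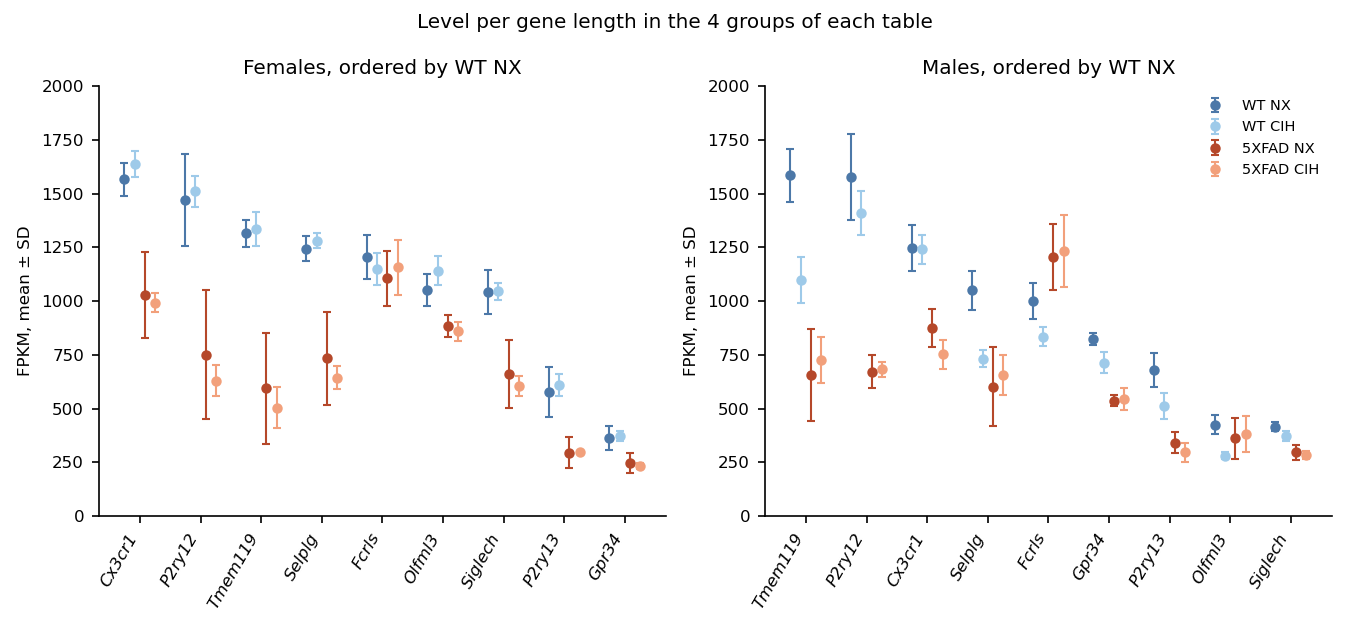
Deposited FPKM (linear axis) of the 9 homeostatic genes in the 4 groups of each sex, in the order of their WT NX level, with a point for the group mean and bars for the SD over 4 or 5 libraries. Fcrls averaged 1205 FPKM in male 5XFAD NX and 1001 in male WT NX, while P2ry12 averaged 672 and 1576.

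The first question was how the genotype alone changed these genes. In normoxic females 6 of the 9 homeostatic genes were lower in 5XFAD NX than in WT NX at FDR < 0.05 and none was higher, against 6.61% of all 14513 genes tested that were lower. Tmem119, at 49.0% of the WT NX level, was the only DEG (FDR < 0.05 and log2FC beyond 1 in size), where 1.59% of all genes were lower DEGs. The median log2FC of the 9 genes was −0.52, and that of all genes was −0.02.

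P2ry12 stood at 2825, 3688, 3967 and 3332 CPM in the 4 female WT NX libraries and at 1629.7, 1751, 2033, 2664 and 1464 CPM in the 5 5XFAD NX libraries. The groups did not overlap, and the highest 5XFAD value was that of library 4. P2ry12 fell to 55.5% of the WT NX level, with log2FC = −0.85, SE 0.20, FDR = 0.0305. Its neighbour P2ry13 stood at 1115, 1278, 1752 and 1382 CPM in WT NX and 744, 778, 761, 910.2 and 697 CPM in 5XFAD NX, again without overlap, and fell to 56.5% (log2FC = −0.82, SE 0.15, FDR = 0.0175). The lipid receptor Gpr34 ranged from 1458 to 2036 CPM in WT NX and from 1096 to 1389 CPM in 5XFAD NX without overlap, but did not pass the test (log2FC = −0.40, SE 0.13, FDR = 0.07).

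Cx3cr1, the receptor with the highest FPKM in female WT NX, stood at 5265, 5888, 5454 and 5702 CPM in WT NX and 3835, 4168, 3963, 4419.7 and 3789 CPM in 5XFAD NX. All 5XFAD values were below all WT values, at a log2FC closer to 0 than those of the ADP receptors (log2FC = −0.46, SE 0.14, FDR = 0.0493). Selplg (log2FC = −0.63, SE 0.14, FDR = 0.0262) and Siglech (log2FC = −0.52, SE 0.13, FDR = 0.0367), the adhesion molecule and the lectin, also fell without overlap between groups. In all, 7 of the 9 genes had 5XFAD NX libraries wholly below WT NX, as did 7.3% of all genes tested.

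Tmem119 stood at 2777, 2807, 2823 and 2549.8 CPM in WT NX, a narrow range, and at 1287, 926, 1429, 1926 and 1105 CPM in 5XFAD NX, a wide one (log2FC = −1.03, SE 0.21, FDR = 0.0198). The secreted Olfml3 stood at 1737, 1659, 1894 and 1645 CPM in WT NX and 1866, 1618, 1618, 1371 and 1676 CPM in 5XFAD NX, and the groups overlapped (log2FC = −0.09, SE 0.12, FDR = 0.628). Fcrls stood at 2551, 2522, 2662 and 2184 CPM in WT NX and 2796, 3062, 2237, 1770.2 and 2995 CPM in 5XFAD NX, where it was both above and below the WT range (log2FC = 0.05, SE 0.18, FDR = 0.852).

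**Figure D2:**
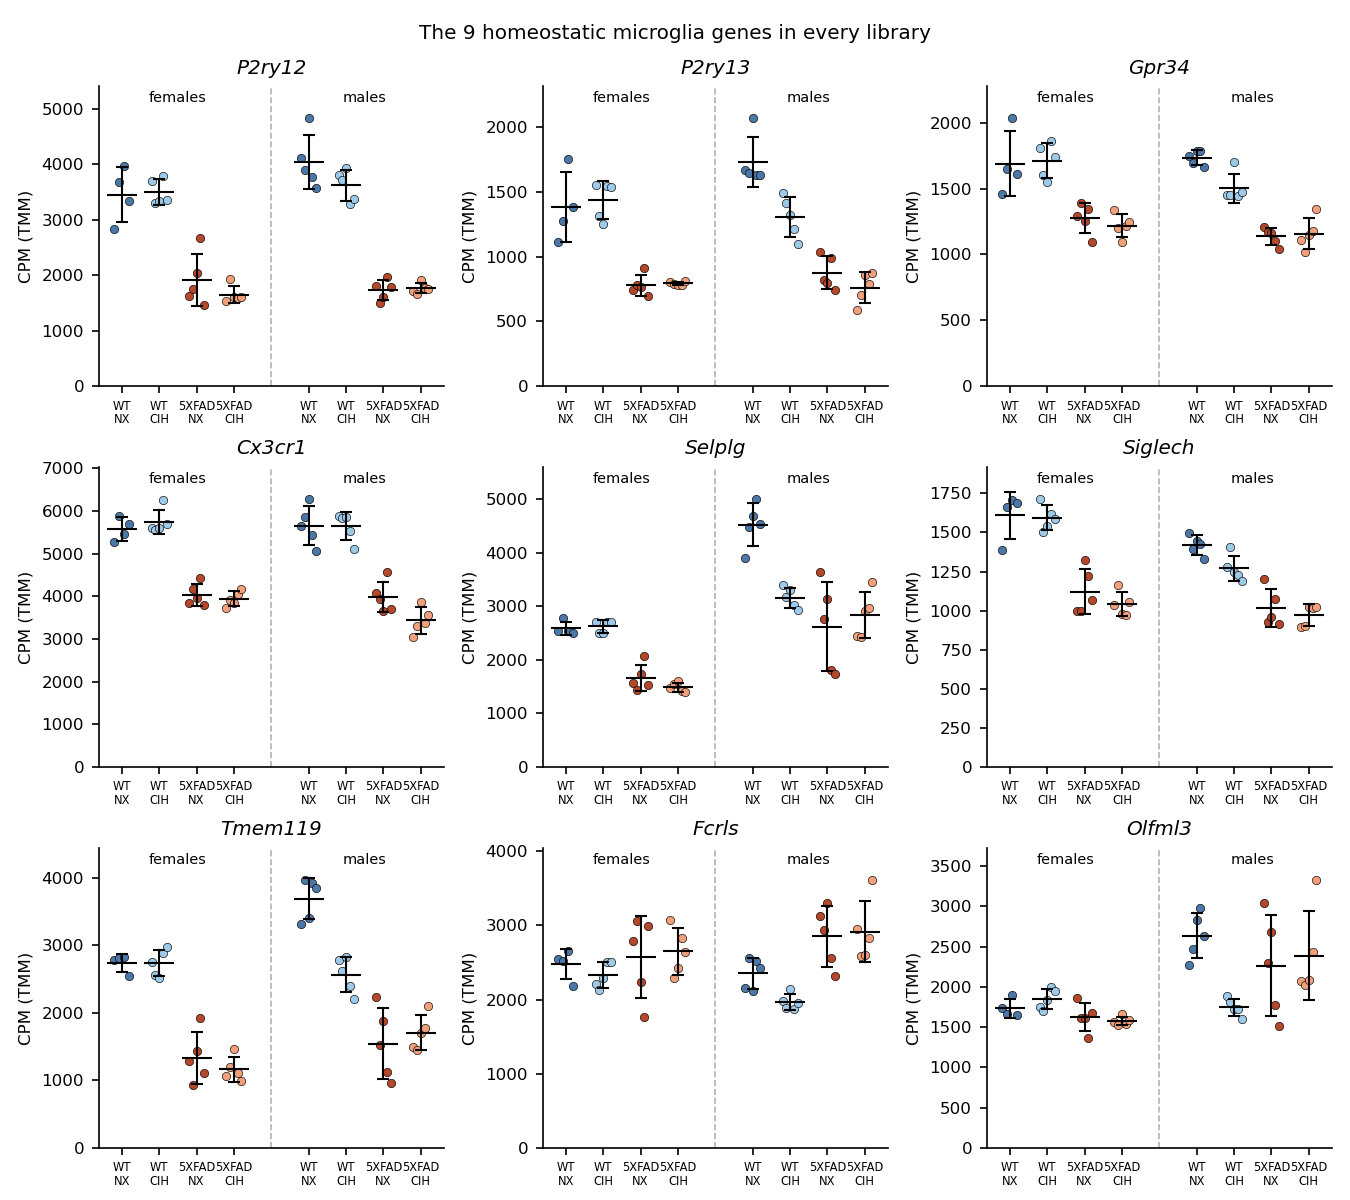
TMM-scaled CPM (linear axis from 0) of each homeostatic gene in every library, with 1 panel per gene, the 4 groups of each sex side by side, a line at the group mean and bars for the SD. P2ry12 lay between 1525 and 1923 CPM in female 5XFAD CIH and between 3309 and 3795 CPM in female WT CIH, whereas Fcrls overlapped between these groups.

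The normoxic female counts depended on single libraries. Without library 4 of 5XFAD NX, 7 of the 9 genes were lower (Gpr34 was added, FDR = 0.0159), where 22.2% of all genes tested were lower, and 2 were DEGs, Tmem119 with a log2FC of −1.22 and P2ry12 with −1.02. Without 5XFAD NX library 1, 2, 3 or 5 the number past FDR < 0.05 was 1, 2, 1 and 0, and 2.84%, 2.17%, 3.27% and 1.16% of all genes passed in either direction. Without WT NX library 1, 2, 3 or 4 it was 4, 1, 0 and 0, where 6.52%, 2.75%, 0.301% and 1.23% of all genes passed. The log2FC of the 6 genes stayed below 0 in all of these fits, with P2ry12 between −1.02 and −0.76 and Tmem119 between −1.22 and −0.92. In library 4 itself all 9 homeostatic genes were below every WT NX library. It had the highest P2ry12, P2ry13, Tmem119, Cx3cr1 and Selplg of the group and its lowest Olfml3 and Fcrls.

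In females under CIH, 8 of the 9 genes were lower in 5XFAD CIH than in WT CIH, where 25.7% of the 14911 genes tested were lower. P2ry12 and Tmem119 were DEGs, and lower DEGs made up 4.12% of all genes. Fcrls was the exception. The median log2FC of the 9 genes was −0.60, against −0.02 for all genes.

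P2ry12 stood at 3703, 3309, 3331, 3795 and 3350.5 CPM in WT CIH and 1525, 1923, 1610.0, 1588 and 1599.8 CPM in 5XFAD CIH, a fall to 47.6% (log2FC = −1.07, SE 0.07, FDR = 8.37e-08). P2ry13 stood at 1552, 1310.0, 1251, 1549 and 1536 CPM in WT CIH and 804, 787, 783, 779.6 and 808 CPM in 5XFAD CIH (log2FC = −0.85, SE 0.07, FDR = 4.38e-07). The 5XFAD CIH values of P2ry13 had a coefficient of variation of 1.6%, the smallest of the 9 genes in any group. Gpr34 ranged from 1549 to 1861 CPM in WT CIH and from 1091 to 1338 CPM in 5XFAD CIH and fell to 72.0% (log2FC = −0.47, SE 0.07, FDR = 0.000109).

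Tmem119 changed most, from 2755, 2561, 2524, 2881 and 2973 CPM in WT CIH to 1067, 1202, 1470.5, 1103 and 989 CPM in 5XFAD CIH (log2FC = −1.22, SE 0.10, FDR = 3.51e-07). Selplg, the neighbour of Tmem119, stood at 2703, 2492, 2506, 2712 and 2708 CPM and 1482, 1553, 1597, 1421 and 1399.7 CPM (log2FC = −0.80, SE 0.06, FDR = 1.39e-07). Cx3cr1 (log2FC = −0.53, SE 0.06, FDR = 8.9e-06) and Siglech (log2FC = −0.60, SE 0.06, FDR = 4.73e-06) fell by less. All of these genes had 5XFAD CIH libraries wholly below WT CIH, as did Olfml3, in all 8 genes against 18.8% of all genes.

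Olfml3 fell least, with log2FC = −0.21, SE 0.06, FDR = 0.00916. Its values were 1752, 1706, 1836, 2004 and 1954 CPM in WT CIH and 1559, 1531, 1664, 1542 and 1593 CPM in 5XFAD CIH. Fcrls stood at 2214, 2128, 2297, 2510.4 and 2511 CPM in WT CIH and 3079.7, 2287, 2425, 2831 and 2645 CPM in 5XFAD CIH, at 115% of the WT level, and the groups overlapped (log2FC = 0.20, SE 0.09, FDR = 0.069). With any single library left out, 8 or 9 of the 9 genes were past FDR < 0.05.

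In females no change of the homeostatic genes with CIH was detected. Between WT NX and WT CIH none of the 9 genes passed FDR < 0.05, none had an unadjusted p under 0.05, and 0% of the 14583 genes tested passed by edgeR (3.87% at an unadjusted p under 0.05). The log2FC of the 9 genes lay between −0.09 for Fcrls and 0.09 for Olfml3, and P2ry12 differed by 0.02 with an SE of 0.09. The 95% intervals of P2ry12 ran from −0.17 to 0.20 and those of Tmem119 from −0.13 to 0.13 on the log2 scale. DESeq2 also called none of the 9.

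Between female 5XFAD NX and 5XFAD CIH none of the 9 genes passed the test either, and 0% of 14578 genes did (3.22% at an unadjusted p under 0.05, which none of the 9 reached). The largest differences were those of P2ry12 (log2FC = −0.21, SE 0.17, FDR = 0.998) and Tmem119 (log2FC = −0.19, SE 0.20, FDR = 0.998). Without library 4 of 5XFAD NX these were −0.05 and −0.01. The genotype by treatment interaction, which tests whether the 5XFAD difference changed under CIH, called none of the 9 genes in females, with log2 differences between −0.23 and 0.13, FDR of at least 0.952 and 0% of 15582 genes called (3.78% at an unadjusted p under 0.05). Without library 4 the interaction of P2ry12 was −0.07 and that of Tmem119 −0.02.

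**Figure D3:**
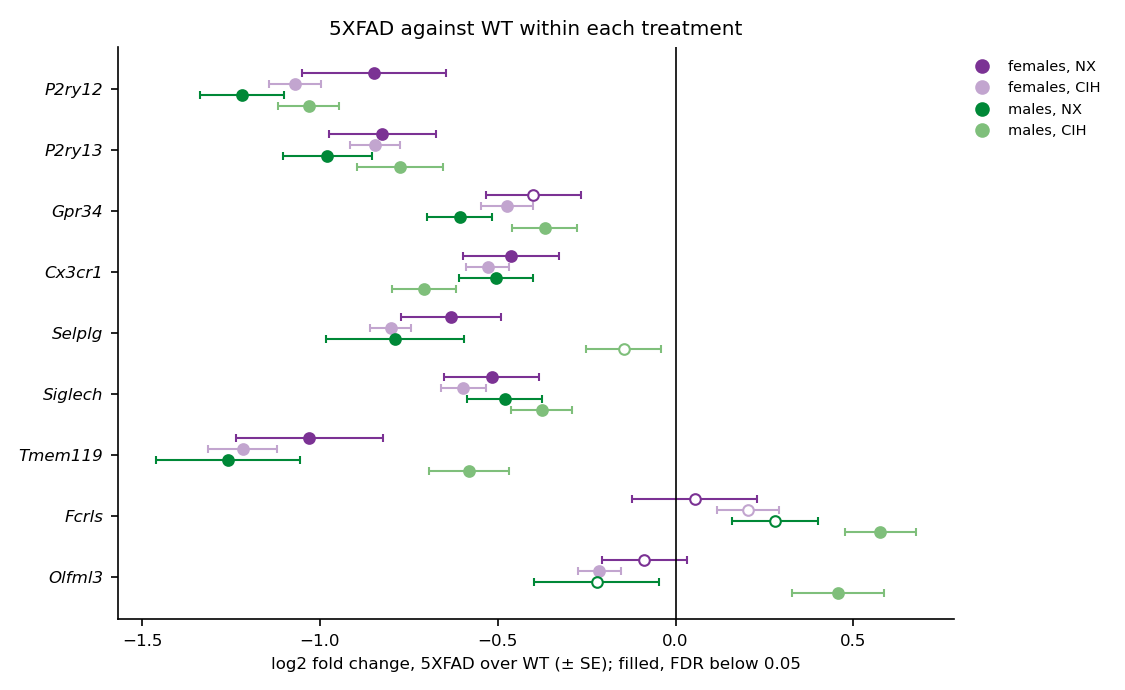
log2FC of the 9 homeostatic genes in 5XFAD against WT microglia, under NX and under CIH in females and males, with bars for ± 1 SE and filled points for FDR < 0.05. In females P2ry12 was at −0.85 under NX and −1.07 under CIH, and Fcrls lay at 0.05 and 0.20.

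In normoxic males 7 of the 9 genes were lower in 5XFAD NX than in WT NX, where 7.37% of the 14834 genes tested were lower. P2ry12, at 42.9% of the WT NX level, and Tmem119, at 41.8%, were DEGs, and 2.31% of all genes were lower DEGs. The median log2FC was −0.61 for the 9 genes and 0.02 for all genes. Olfml3 and Fcrls did not pass the test.

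P2ry12 stood at 4118, 3900.3, 4834, 3762 and 3575 CPM in male WT NX and 1808, 1504, 1603, 1964 and 1779.7 CPM in 5XFAD NX, with every 5XFAD library under every WT library (log2FC = −1.22, SE 0.12, FDR = 1.6e-05). P2ry13 stood at 1673, 1644, 2070.2, 1629 and 1633 CPM in WT NX and 1033, 822, 796, 989 and 743 CPM in 5XFAD NX (log2FC = −0.98, SE 0.13, FDR = 0.000147). Gpr34, from 1661 to 1788 CPM in WT NX and from 1043 to 1208 CPM in 5XFAD NX, fell to 65.6% (log2FC = −0.61, SE 0.09, FDR = 0.00052). The nucleotide and lipid receptors thus all fell without overlap in males.

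Cx3cr1 stood at 5639.5, 5857, 6275, 5437 and 5070.1 CPM in WT NX and 4064, 3926, 3653, 4557 and 3707 CPM in 5XFAD NX (log2FC = −0.50, SE 0.10, FDR = 0.00485). Siglech fell by a like amount on the log2 scale (log2FC = −0.48, SE 0.11, FDR = 0.00724). Selplg stood at 3906, 4474, 4694, 5001 and 4535 CPM in WT NX and 3646, 2766, 3127, 1812 and 1732 CPM in 5XFAD NX, where libraries 4 and 5 were the lowest (log2FC = −0.79, SE 0.19, FDR = 0.0129).

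Tmem119 showed the same split, with 3318, 3968, 3412, 3921 and 3845 CPM in WT NX and 2229.9, 1524, 1877, 1124 and 959 CPM in 5XFAD NX (log2FC = −1.26, SE 0.20, FDR = 0.00087). Olfml3 stood at 2272, 2473, 2827, 2983 and 2632 CPM in WT NX and 3040.2, 2298, 2677, 1772 and 1517 CPM in 5XFAD NX, so that libraries 4 and 5 were under and library 1 above the WT range (log2FC = −0.22, SE 0.18, FDR = 0.457). Fcrls stood at 2158, 2555, 2112, 2519 and 2424 CPM in WT NX and 3130.4, 2941, 3309, 2565 and 2319 CPM in 5XFAD NX (log2FC = 0.28, SE 0.12, FDR = 0.139). With libraries 4 and 5 of 5XFAD NX omitted, 7 genes were lower and Fcrls was higher (log2FC = 0.41, FDR = 0.00345), where 15.6% of all genes were lower and 17.9% higher, P2ry12 (log2FC = −1.30) was the only DEG, Tmem119 was at −0.98, Selplg at −0.51 and Olfml3 at 0.02. In all, 7 of the 9 genes had 5XFAD NX libraries wholly below WT NX, against 7.38% of all genes.

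Under CIH most of the homeostatic genes were lower in male 5XFAD microglia too. Of the 9 genes, 6 were lower in 5XFAD CIH than in WT CIH and 2, Fcrls and Olfml3, were higher, where 23.7% of the 14793 genes tested were lower and 25.3% higher. P2ry12 was the only DEG (lower DEGs were 6.88% of all genes). The median log2FC of the 9 genes was −0.38, and that of all genes −0.06.

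P2ry12 stood at 3807, 3719.9, 3929.7, 3279 and 3378 CPM in WT CIH and 1719.7, 1654, 1905, 1769 and 1757 CPM in 5XFAD CIH, at 48.9% of the WT CIH level (log2FC = −1.03, SE 0.09, FDR = 3.37e-07). P2ry13 (log2FC = −0.77, SE 0.12, FDR = 0.000125) and Cx3cr1 (log2FC = −0.71, SE 0.09, FDR = 1.9e-05) also fell. The Cx3cr1 values were 5870.2, 5832, 5862, 5535 and 5097 CPM in WT CIH and 3049, 3311, 3874, 3367 and 3564 CPM in 5XFAD CIH, without overlap. Gpr34 and Siglech fell to 77.5% and 77.0% of the WT CIH level.

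Tmem119 stood at 2786, 2615, 2824, 2399 and 2213 CPM in WT CIH and 1497, 1452, 1706, 1771 and 2106 CPM in 5XFAD CIH, at 66.8% of the WT CIH level and so short of a DEG (log2FC = −0.58, SE 0.11, FDR = 0.000669). Its neighbour Selplg stood at 3388, 3166, 3296, 3023 and 2932 CPM in WT CIH and 2444, 2425, 2918, 2969.5 and 3461 CPM in 5XFAD CIH, where library 5 was above the WT range and libraries 1, 2 and 3 were below it (log2FC = −0.15, SE 0.11, FDR = 0.266). In 5XFAD NX against WT NX the log2FC of these 2 genes was −1.26 and −0.79.

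Fcrls stood at 1981, 1887, 2147, 1877 and 1948 CPM in WT CIH and 2959, 2593, 2599.9, 2828 and 3611 CPM in 5XFAD CIH, and rose to 149% (log2FC = 0.58, SE 0.10, FDR = 0.000305). Olfml3 stood at 1882, 1813, 1723, 1728 and 1597 CPM in WT CIH and 2073, 2028, 2088, 2429 and 3327 CPM in 5XFAD CIH, where library 5 was far above the others, and rose to 137% (log2FC = 0.46, SE 0.13, FDR = 0.00888). Without library 5 the log2FC was 0.32 (FDR = 0.00537) for Olfml3 and 0.50 for Fcrls, and again 6 genes were lower and 2 higher, where 22.3% and 24.1% of all genes were. Both genes had all 5XFAD CIH libraries above WT CIH (as did 19.6% of all genes), and 6 genes had all of them below (16.2%). With library size as the only scaling, 7 genes were lower and 1, Fcrls, was higher. Olfml3 was then at 0.07 and Selplg passed the test at −0.53, while the median of all genes moved from −0.06 to −0.43.

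In male WT microglia CIH was accompanied by lower levels. Between WT NX and WT CIH, 6 of the 9 genes were lower under CIH and none was higher, where 15% of the 14983 genes tested were lower. No homeostatic gene was a DEG (0.881% of all genes were lower DEGs). The median log2FC of the 9 genes was −0.26, and that of all genes −0.01. When all 4 male groups shared one fit, 0 of the 9 genes passed FDR < 0.05, with FDR between 0.0594 and 0.987.

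Olfml3, Tmem119, Selplg and P2ry13 changed most. The secreted Olfml3 ranged from 2272 to 2983 CPM in WT NX and from 1597 to 1882 CPM in WT CIH, a fall to 66.3% without overlap (log2FC = −0.59, SE 0.08, FDR = 0.000317). Tmem119 (log2FC = −0.52, SE 0.08, FDR = 0.00055) and Selplg (log2FC = −0.52, SE 0.08, FDR = 0.000385) fell by a like amount, also without overlap. P2ry13 fell to 75.5% (log2FC = −0.40, SE 0.10, FDR = 0.00603), whereas its neighbour P2ry12 did not pass the test (log2FC = −0.16, SE 0.09, FDR = 0.198).

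Fcrls, which did not fall in 5XFAD microglia, ranged from 2112 to 2555 CPM in WT NX and from 1877 to 2147 CPM in WT CIH and fell to 83.6% (log2FC = −0.26, SE 0.08, FDR = 0.02). Gpr34 fell to 86.7% (log2FC = −0.21, SE 0.07, FDR = 0.042), and neither of these 2 calls held under library-size scaling. The call of Gpr34 was lost in 10 of 11 other settings, all but DESeq2, and in 9 of 10 fits without a single library. That of Fcrls was lost in 7 of 11 settings and 2 of 10 such fits, and those of the 4 genes named first were lost only in the shared fit. Cx3cr1 was at 99.7% of the WT NX level (SE 0.07, FDR = 0.969), with a 95% interval from −0.15 to 0.14 on the log2 scale. Scaled over these 2 groups alone, 5 genes (the 4 named first and Fcrls) had WT CIH libraries wholly below WT NX, against 9.22% of all genes.

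Other lists moved in the same WT comparison, in which 15% of all genes were lower and 13.6% higher, and their part in the result was not tested. The sum over the neutrophil markers ran from 266 to 1343 CPM in WT NX and from 125 to 354 CPM in WT CIH, with 8 of 9 markers lower. That of the monocyte markers ran from 61.2 to 151 CPM and from 38.9 to 76.5 CPM, with 3 of 5 lower. Transcripts of the 13 protein-coding genes of the mitochondrial genome summed to 11400.3 to 16139 CPM in WT NX and 8377 to 9911 CPM in WT CIH, and 9 of 12 tested were lower. The defining microglial genes were also lower in 4 of 6 cases, with sums of 27649 to 30735 CPM in WT NX and 22071 to 24983 CPM in WT CIH. Of the border macrophage markers 3 of 8 were lower (sums of 241 to 341 CPM in WT NX and 158 to 338 CPM in WT CIH), and 1 astrocyte, 1 oligodendrocyte and 1 dissociation gene were higher. None of these markers was at 0 throughout either group.

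In male 5XFAD microglia no homeostatic gene changed between NX and CIH at FDR < 0.05, nor did any reach an unadjusted p under 0.05, and 0% of 14334 genes were called (3.3% at an unadjusted p under 0.05). The log2FC lay between −0.21 for Cx3cr1 and 0.15 for Tmem119, whose 95% interval ran from −0.27 to 0.56. With libraries 4 and 5 of 5XFAD NX omitted, Tmem119 was at −0.12. DESeq2 called none of the 9 genes either.

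**Figure D4:**
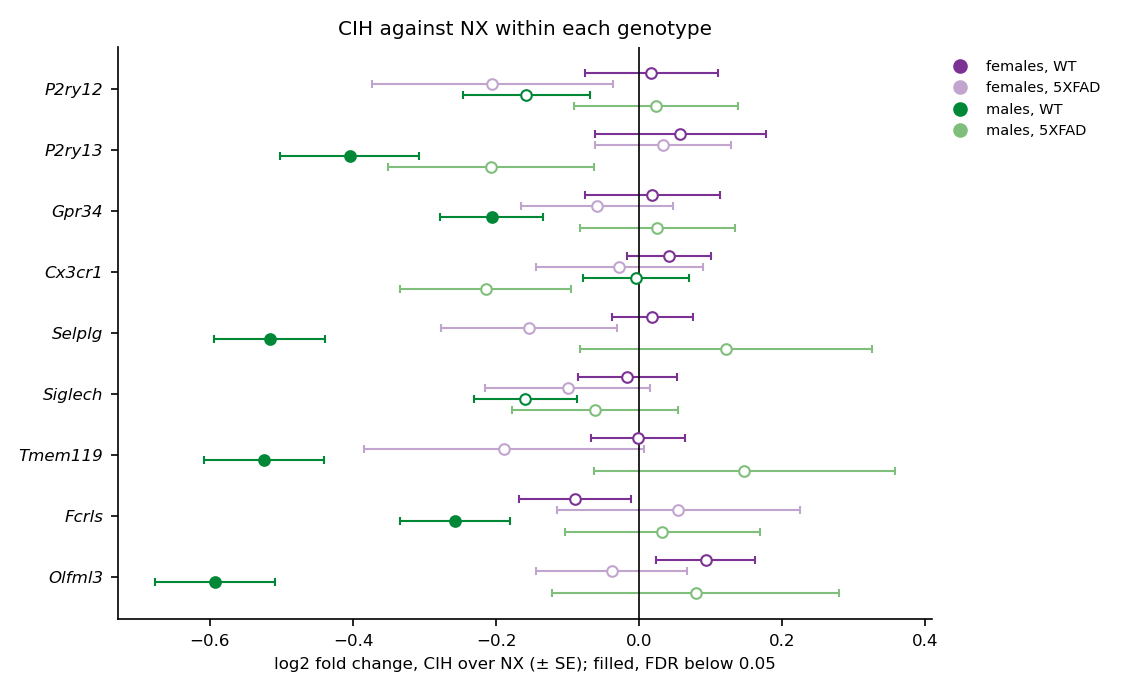
log2FC of the 9 homeostatic genes in CIH against NX microglia, in WT and in 5XFAD mice of each sex, with bars for ± 1 SE and filled points for FDR < 0.05. Only male WT microglia hold filled points, 6 of 9, with Olfml3 at −0.59 and Cx3cr1 near 0.

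The interaction called none of the 9 genes in males. The genotype difference was higher under CIH by 0.67 for Olfml3 (SE 0.23, FDR = 0.122), by 0.67 for Tmem119 (SE 0.24, FDR = 0.127) and by 0.63 for Selplg (SE 0.23, FDR = 0.127) on the log2 scale. That of Olfml3 went from −0.22 under NX to 0.46 under CIH, while those of Tmem119 and Selplg stayed negative. These 3 genes had an unadjusted p under 0.05, as did 24.4% of the 15813 genes tested, and 0% were called by edgeR. DESeq2 called Olfml3 (FDR = 0.0457), and without male 5XFAD NX library 1 all 3 genes passed at an FDR of 0.0466. With libraries 4 and 5 of that group omitted the differences were 0.43, 0.39 and 0.35, and their FDR was between 0.444 and 0.457. The median interaction of the 9 genes was 0.23, and that of all genes −0.04. The comparisons within a sex share groups and are not independent of each other.

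The 9 genes did not keep their proportions. Relative to the mean of all 9 in the same library, and to WT NX, Fcrls was higher by 0.57 on the log2 scale in female 5XFAD NX (0.73 without library 4, which was at −0.08 itself), 0.71 in female 5XFAD CIH, 0.93 in male 5XFAD NX and 0.96 in male 5XFAD CIH. Olfml3 was also above the mean of the list, by 0.48 in female and 0.49 in male 5XFAD CIH (0.42 without library 5). Tmem119 lay below it, at −0.63 in female and −0.47 in male 5XFAD CIH, and P2ry12 at −0.45 and −0.54. In male WT CIH, Olfml3 was instead below the mean, at −0.28, and P2ry12 above it, at 0.16. These are ratios within a library and show unequal change.

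Across the 19 female libraries the profile nearest to the mean of the 9 genes was that of Cx3cr1, with a root mean square difference of 0.0806 on the log2 scale, and the farthest was Fcrls with 0.417. In the 20 male libraries Gpr34 was nearest, with 0.0873, and Fcrls again farthest, with 0.472. Among the 15582 genes of the female table tested Slc1a3 (0.0633), Twf2 (0.0671), Sft2d2 (0.0688), Cmtm6 (0.0702) and Plcl2 (0.071) had the smallest difference from this mean. Genes near to the mean in males were Plcl2 (0.0799), Fez2 (0.102), Scamp2 (0.102) and Lgmn (0.111) among 15813 genes. Plcl2 was named in both sexes.

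Among other genes of the homeostatic state, more were lower than higher in each genotype comparison. Of 24 further such genes, 8 were lower and 1 higher in normoxic 5XFAD females, where 6.61% of all genes were lower and 7.26% higher. Without 5XFAD NX library 4 these counts were 12 and 4 (22.2% and 21.8% of all genes), and without WT NX library 1 they were 4 and 0 (3.08% and 3.44%). In females under CIH 17 were lower and 5 higher, where 25.7% and 26.2% of all genes were. In normoxic males 11 were lower and 3 higher (7.37% and 10.4% of all genes), and with libraries 4 and 5 omitted 15 and 3 (15.6% and 17.9%). In males under CIH 10 were lower and 4 higher (23.7% and 25.3% of all genes), with or without library 5. Their median log2FC was −0.26, −0.39, −0.34 and −0.20 in the order of these comparisons, against −0.02, −0.02, 0.02 and −0.06 for all genes. Crybb1 fell in all 4 (log2FC = −1.51, −2.07, −1.49 and −0.74), and so did Sall1, a transcription factor of microglial identity (−0.65, −0.70, −0.77 and −1.11). Serpine2, a secreted protease inhibitor, rose in all 4, by 1.67, 1.77, 1.60 and 1.93. Without female WT NX library 1, Sall1 (FDR = 0.0662) and Serpine2 (FDR = 0.0537) did not pass the test in normoxic females. In male WT microglia under CIH 12 of the 24 fell and 3 rose (15% and 13.6% of all genes), among them Cst3 at −0.72 and Golm1 at 0.51. In the other treatment comparisons none of the 24 passed, and no gene of any kind was called.

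Of 15 partners of these receptors, 12 or 13 could be tested in each pairwise comparison. In 5XFAD CIH 3 of 13 fell and 4 rose in females, and 2 of 13 fell and 5 rose in males (4 without library 5). Of all genes 25.7% fell and 26.2% rose in females, and 23.7% and 25.3% in males. In female 5XFAD NX 2 of 12 fell and 1 rose (6.61% and 7.26% of all genes). These were 2 and 4 without library 4 (22.2% and 21.8%), and 0 and 0 without WT NX library 1 (3.08% and 3.44%). In male 5XFAD NX 0 of 13 fell and 1 rose (7.37% and 10.4% of all genes), or 3 and 2 with libraries 4 and 5 omitted (15.6% and 17.9%). In male WT CIH 5 of 13 fell, as did 15% of all genes. Tyrobp, the adaptor of Siglech and one of the 20 DAM genes, rose in all 4 genotype comparisons (log2FC = 1.46, 1.76, 1.49 and 2.69), in each of which Siglech itself fell. Without WT NX library 1 Tyrobp did not pass the test in normoxic females (FDR = 0.0736). Gcnt1 and B4galt1, glycosyltransferases that help to build selectin ligands, fell in female 5XFAD NX (log2FC = −0.42 and −0.28), female 5XFAD CIH (−0.37 and −0.26) and male 5XFAD CIH (−0.70 and −0.34), whereas Fut7, which fucosylates them, rose in female and male 5XFAD CIH by 1.34 and 1.49. Entpd1, also one of the 24 further homeostatic genes, which breaks down extracellular ATP and ADP, fell in female 5XFAD CIH (log2FC = −0.42). Cx3cl1, the ligand of Cx3cr1, was named after its values were seen and did not pass the test between male WT NX and 5XFAD NX (log2FC = 0.15, FDR = 0.895).

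Med12l, the gene in which P2ry12 and P2ry13 lie, fell in 5XFAD CIH females (log2FC = −0.44, FDR = 0.00469) and males (log2FC = −1.36, FDR = 0.000382). In normoxic females it did not pass the test (log2FC = −0.46, FDR = 0.0862), but did without 5XFAD NX library 4 (−0.52, FDR = 0.0255) and without WT NX library 1 (−0.60, FDR = 0.0405). In normoxic males its log2FC was −0.08 (FDR = 0.939), and with libraries 4 and 5 omitted it passed at −1.33 (FDR = 0.00077). It rose in male WT CIH against WT NX (log2FC = 0.64, FDR = 0.0258), where P2ry13 fell. P2ry14, another nucleotide receptor of this cluster, rose in female 5XFAD CIH (log2FC = 0.97, FDR = 0.0263).

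Most DAM genes rose in the genotype comparisons, in which most homeostatic genes fell. In normoxic females 15 of 20 rose in 5XFAD NX, where 7.26% of all genes did. Without 5XFAD NX library 4 it was 16 of 20 (21.8% of all genes) and without WT NX library 1 it was 10 of 20 (3.44%). In females under CIH 20 of 20 rose (26.2% of all genes), and so did 20 of 20 in normoxic males (10.4%) and in males under CIH (25.3%), where Fcrls and Olfml3 of the homeostatic genes rose too. Cst7 had a log2FC of 6.80 and 7.39 in females under NX and CIH and 8.20 in males under CIH, and Trem2 one of 1.09 and 1.24 in females and 1.04 in normoxic males. In male WT microglia under CIH 15 of 20 DAM genes were lower (median log2FC −0.53), as were 6 of the 9 homeostatic genes and 15% of all genes. DAM sums were 15801 to 20852 CPM in male WT NX and 12286 to 13027 CPM in male WT CIH.

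**Figure D5:**
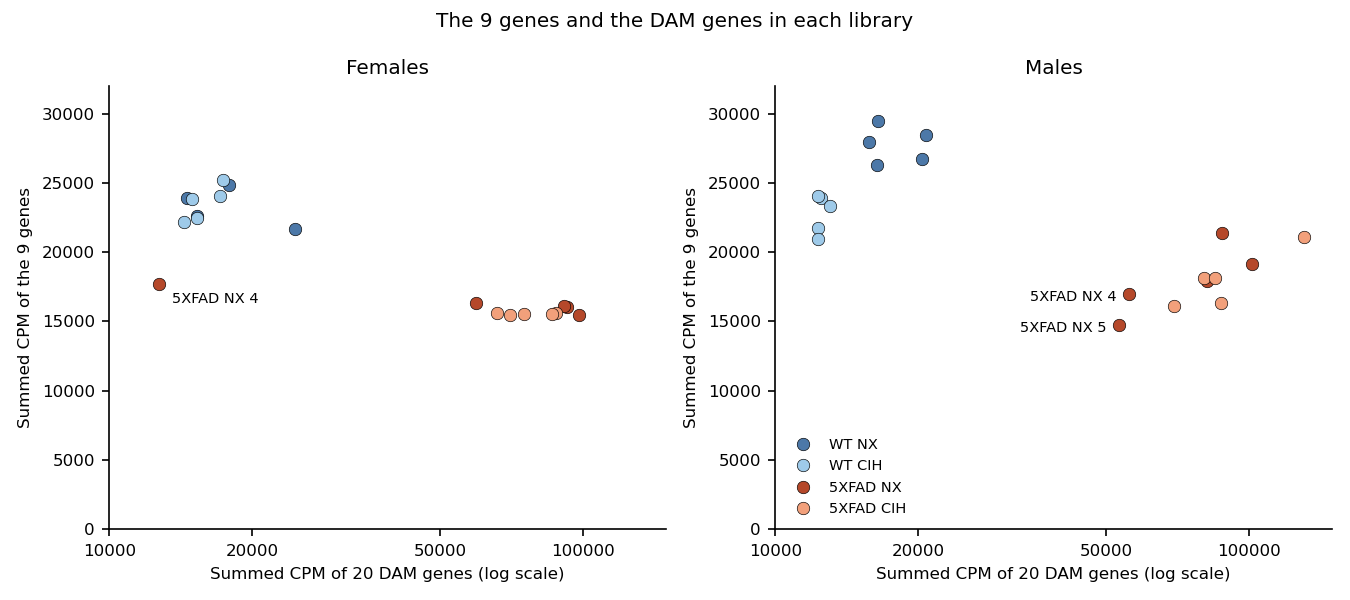
Sum of the 9 homeostatic genes (CPM, linear axis from 0) against the sum of 20 DAM genes (CPM, log axis) in each library, by group and sex. Female 5XFAD NX library 4 has a DAM sum of 12749.8 CPM and a homeostatic sum of 17694 CPM, and the male WT CIH and 5XFAD CIH libraries, with homeostatic sums of 20931 to 24055 and 16081 to 21063 CPM, overlap on that axis, through 5XFAD CIH library 5 alone, but not on the DAM axis.

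Summed over the 9 genes, the female groups were apart by genotype, at 21659.7 to 24831 CPM in WT NX and 15428 to 17694 CPM in 5XFAD NX, and at 22175 to 25176 CPM in WT CIH and 15472 to 15604 CPM in 5XFAD CIH. The male sums ran from 26329 to 29455 CPM in WT NX and from 14715 to 21363 CPM in 5XFAD NX. Under CIH they ran from 20931 to 24055 CPM in WT and from 16081 to 21063 CPM in 5XFAD, and overlapped through 5XFAD library 5 alone, since the other 4 reached at most 18126 CPM.

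Markers of other cells and genes induced by tissue dissociation differed between the genotypes too, and their part in the results was not tested. The shares of all genes that passed in these comparisons were 6.61% lower and 7.26% higher in normoxic females, 25.7% and 26.2% in females under CIH, 7.37% and 10.4% in normoxic males and 23.7% and 25.3% in males under CIH. Border macrophage markers such as Mrc1 were lower in 6 of 8 cases in normoxic females, 6 of 8 in females under CIH, 5 of 8 in normoxic males (6 with libraries 4 and 5 omitted) and 3 of 8 in males under CIH, and none was higher. Their sums were 215 to 362 CPM in female WT NX and 107 to 193 CPM in female 5XFAD NX, and 241 to 341 CPM in male WT NX and 112 to 167 CPM in male 5XFAD NX. Of 6 astrocyte markers, 3 (Gfap, Slc1a2 and Aldoc) were higher and 1, Slc1a3, lower in normoxic males and in females under CIH. Their sums were 133 to 182 CPM in male WT NX and 369 to 1004 CPM in male 5XFAD NX, and 158 to 197 CPM in female WT CIH and 223 to 637 CPM in female 5XFAD CIH. In normoxic females 1 was higher and 1 lower (2 lower without library 4), and in males under CIH 1 was higher and 2 lower. Of 5 endothelial markers, Flt1 rose in all 4 comparisons (log2FC = 3.32, 3.23, 2.21 and 2.70) and Pecam1 fell in all 4 (log2FC from −1.79 to −1.22). Kdr also rose in females under CIH (0.55). In normoxic females 2 of the 5 were higher and 1 lower without 5XFAD NX library 4, and 1 and 0 without WT NX library 1.

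Of the 6 defining microglial genes, 0 passed in normoxic females (1 lower and 3 higher without library 4), 1 was lower and 3 higher in females under CIH, 1 was lower in normoxic males (with 2 higher when libraries 4 and 5 were omitted) and 3 were higher in males under CIH. Of 7 neuronal markers, 1 was lower in females under CIH and 1 in normoxic males.

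Oligodendrocyte markers were higher in 3 of 6 cases in normoxic males, with sums of 184 to 331 CPM in WT NX and 275 to 592 CPM in 5XFAD NX, and in 2 of 6 in males under CIH. Of 5 tested in females, 1 was lower in 5XFAD under NX (with 1 higher without library 4) and 1 was lower and 1 higher in 5XFAD under CIH. Neutrophil markers were lower in 5XFAD CIH than in WT CIH in 4 of 9 cases in females, with sums of 57.3 to 129 CPM in WT and 25.4 to 89.6 CPM in 5XFAD. In males under CIH 3 of 9 were lower in 5XFAD (2 without library 5), with sums of 125 to 354 and 63.4 to 226 CPM. In normoxic females 0 of 9 were, or 3 without library 4, and in normoxic males 0 of 9 were. Of 5 monocyte markers, 1 was lower in female 5XFAD NX (2 without library 4 and 0 without WT NX library 1, whose group ran from 35.8 to 477 CPM in sum), 1 was lower in male 5XFAD NX, 2 were lower and 1 higher in female 5XFAD CIH, and 1 was lower and 1 higher in male 5XFAD CIH. Of 4 lymphocyte markers tested, 3 were higher in male 5XFAD CIH, at sums of 6.60 to 12.4 CPM against 1.95 to 3.79 CPM in WT CIH. Of 12 dissociation genes, such as Fos and Jun, 3 were higher in female 5XFAD NX (5 without library 4 and 1 without WT NX library 1), with sums of 1962 to 3845 CPM in WT NX and 3081 to 4619 CPM in 5XFAD NX. In female 5XFAD CIH 2 were higher and in male 5XFAD CIH 4 were. In male 5XFAD NX 4 were lower and 1 higher, with sums of 1794 to 2398 CPM in WT NX and 1248 to 1852 CPM in 5XFAD NX. Of the mitochondrially encoded genes, 12 of 12 tested were higher in 5XFAD CIH in females and in males. In female 5XFAD NX 2 of 12 were higher, 9 without library 4 and 0 without WT NX library 1, and in male 5XFAD NX 4 of 12 were, or 11 with libraries 4 and 5 omitted. Their sums were 7352 to 9160.4 CPM in female WT CIH and 11937 to 17340 CPM in female 5XFAD CIH, and 8377 to 9911 CPM in male WT CIH and 17586 to 28146 CPM in male 5XFAD CIH. None of these markers was at 0 throughout a group.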

How the data were processed

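RNA from CD11b+ cells was sequenced in 39 libraries at a commercial provider. The authors deposited, per gene and library, raw read counts and FPKM values in one table per sex, and all columns of per-sample values were used. The submitters' processing notes name HISAT2 and GRCm38/mm10, while the counting tool and its use of strand are not given in the sources used here. Libraries were grouped by their labels. The study's methods call them independent samples, no animal is named, and p-values measure the spread between these libraries. No 2 libraries of a group agreed within sampling noise. Within each sex, genes over 1 CPM in 3 or more compared libraries (15 reads in the smallest female library and 13 in the smallest male one) were tested with edgeR 4.0.16 (R 4.3.3), the quasi-likelihood F test after TMM scaling, with Benjamini-Hochberg FDR over all genes tested. Significant DEGs had FDR < 0.05 and a log2FC beyond 1 in size. SE was |log2FC| divided by the root of F, and 95% intervals are ± 1.96 SE. The interaction used all 4 groups of a sex. The scripts were tested on simulated counts. DESeq2 1.42.0, limma 3.58.1 on FPKM, other scalings and filters, a replicate block and fits without single libraries were alternatives. Counts of each gene list without some of the libraries that stood apart were added after seeing the data. Mitochondrially encoded genes of the female table were matched by their RefSeq symbols. From the lists of further homeostatic genes, partners, neighbours and DAM genes, named genes were among the 2 highest or 2 lowest log2FC past FDR < 0.05 in a comparison. Cell type markers, dissociation genes and Cx3cl1 were named outside this rule, and genes near the mean of the 9 by their distance. Some genes that met these rules are not reported here. The genes and lists were chosen with earlier results of these data known. Each of the 9 genes drew at least 7579 reads in every library, which gives a counting error of at most 1.15% (1 over the root of the reads). The spread between libraries of a group was 1.75 times that error for P2ry13 in female 5XFAD CIH and at least 5.16 times in every other combination of gene and group.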

Additional observations from a re-analysis of the deposited data

Results flagged for a closer look

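Of 72 combinations of a homeostatic gene and a group, 6 held a library far from the others of its group, where chance alone gives about 3.6 (1 in 20). P2ry12 was high in female 5XFAD CIH library 2, at 1923 CPM against 1525 to 1609.9 CPM in the others. Tmem119 was low in female WT NX library 4, at 2549.8 CPM against 2777 to 2823 CPM. Cx3cr1 was high in female WT CIH library 4, at 6246 CPM against 5562 to 5692 CPM. Siglech was low in female WT NX library 1, at 1385 CPM against 1662 to 1706 CPM. P2ry13 was high in male WT NX library 3, at 2070.2 CPM against 1629 to 1673 CPM. Gpr34 was high in male WT CIH library 3, at 1699 CPM against 1442 to 1476 CPM. All 6 libraries were on the same side of the other genotype's values as the rest of their group.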

How the results depend on the processing

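Of 2052 values of log2FC of the 9 genes under other settings, 1866 kept direction and side of the threshold, 95 lost the call, 18 gained it and 73 changed sign. Every sign change was in a value that had not passed the test. In normoxic 5XFAD females 0 genes were past an FDR limit of 0.01, 0 passed with a replicate block (0 DEGs in either), and limma on FPKM with either pseudocount gave 2 DEGs. Leaving out single libraries gave 0 to 7 genes past FDR < 0.05 and 0 to 2 DEGs there. In normoxic males scaling by library size alone gave 4 DEGs, the replicate block left 4 genes past FDR < 0.05, and omitting libraries 4 and 5 of 5XFAD NX, chosen after seeing the data, gave 1 DEG. In males under CIH library size alone gave 3 DEGs. In male WT microglia the shared fit of 4 groups left 0 genes, the other settings 4 to 6, and fits without single libraries 4 to 6. The male interaction had 2 genes past FDR < 0.05 with no filter, 1 with DESeq2, and 0 to 3 without single libraries. The cause of these changes was not tested. Library size alone moved the median log2FC of all genes to −0.17 and −0.21 in females under NX and CIH, −0.16 and −0.43 in males, and −0.21 in the male interaction, and keeping genes of low counts also moved it, to 0.72 in normoxic females.

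Replicate numbers did not pair the libraries: in no comparison did every same-numbered pair of deviations correlate above 0.1 (range −0.56 to 0.31), and no comparison had more than 1 pair that correlated best with its own number. The block changed the number of calls by over 1.5 times only in the genotype comparisons under NX.

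Signs changed as follows. Fcrls in normoxic 5XFAD females was −0.12 by library size, −0.0301 with the replicate block and −0.13 by limma at both pseudocounts. Between female WT NX and WT CIH, Tmem119 was 0.0219 by library size, 0.0204 by both limma fits and 0.00065 in the shared fit, Siglech was 0.0067 by library size and 0.0102 and 0.0103 by the limma fits, and with no filter P2ry12 was −0.0018, Gpr34 −0.00049 and Selplg −0.0032. Between female 5XFAD NX and 5XFAD CIH, P2ry13 was −2.8e-05 by library size, and its female interaction was 0.0074 with no filter. Olfml3 in normoxic males was 0.015 without libraries 4 and 5. Cx3cr1 in male WT microglia was 0.014 with RLE factors, 0.0925 by library size, 0.0277 with no filter, 0.013 with at least 10 counts and 0.014 by DESeq2. Between male 5XFAD NX and 5XFAD CIH, library size put P2ry12 at −0.0621, Gpr34 at −0.0544 and Fcrls at −0.0403, and omitting libraries 4 and 5 put Tmem119 at −0.12, Gpr34 at −0.015, Selplg at −0.15, Olfml3 at −0.15 and Fcrls at −0.0864. In the male interaction, library size put P2ry12 at −0.0013 and Siglech at −0.077.

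Ranges over fits without single libraries that crossed 0 were −0.014 to 0.15 for Fcrls in normoxic 5XFAD females. Between female WT NX and WT CIH they were −0.0647 to 0.0912 for P2ry12, −0.0291 to 0.194 for P2ry13, −0.0429 to 0.0215 for Tmem119, −0.0787 to 0.0131 for Siglech, −0.0424 to 0.122 for Gpr34 and −0.00675 to 0.0525 for Selplg. Between female 5XFAD NX and 5XFAD CIH they were −0.00594 to 0.102 for P2ry13, −0.0518 to 0.0132 for Cx3cr1, −0.0891 to 0.0124 for Olfml3 and −0.0485 to 0.125 for Fcrls, and −0.171 to 0.054 for the female interaction of P2ry13. Cx3cr1 in male WT microglia ran from −0.0456 to 0.0384. Between male 5XFAD NX and 5XFAD CIH they were −0.0106 to 0.0753 for P2ry12, −0.0958 to 0.0121 for Siglech, −0.00883 to 0.0606 for Gpr34, −0.0436 to 0.214 for Olfml3 and −0.033 to 0.0939 for Fcrls.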

Other observations

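The spread between libraries of a group differed by gene and group. In female WT NX Tmem119 had the smallest coefficient of variation of the 9 genes, 4.7%, and in female 5XFAD NX the largest, 28.5%, with library 4 at its top. As FPKM it was 595 ± 258 (SD, n = 5) in female 5XFAD NX and 488 ± 110 (SD, n = 4) without library 4. Tmem119 was also the most variable homeostatic gene in male 5XFAD NX, at 34.0%, where libraries 4 and 5 were its lowest, and in female 5XFAD CIH, at 16.0%. In male 5XFAD CIH it was Olfml3, at 22.9%, with library 5 far above the rest. As FPKM, Olfml3 was 382 ± 84.4 (SD, n = 5) in that group and 346 ± 29.0 (SD, n = 4) without library 5. The median coefficient over the 9 genes was 12.9% in female and 14.3% in male 5XFAD NX, against 8.3% and 8.7% in WT NX. Under CIH it was 7.3% in female 5XFAD and 6.9% in female WT, and 14.3% in male 5XFAD and 6.4% in male WT. P2ry13 in female 5XFAD CIH (1.6%) and Gpr34 in male WT NX (3.3%) varied least. The coefficients include the libraries that stood apart. They are descriptions of 4 or 5 libraries each, and the differences in spread were not tested.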
